A study of Mus musculus with 48 samples.

Results

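The response of NMM cells, a mouse melanoma line with a mutated NRAS gene, to 2 h of continuous interferon gamma (IFNγ) was read from 5 of the 48 RNA libraries of a cytokine time course. The libraries were chosen by label: the 2 that received IFNγ alone, at 1 and at 100 ng/ml, against 3 controls harvested after the same 2 h, namely unstimulated cells, cells given 6000 U/ml IL-2 and cells given 2 ng/ml lymphotoxin A1 B2. All 5 are cultures of the same NRAS-mutant cells. The IFNγ group is therefore a pair of doses and the control group a set of 3 conditions with 1 library each, and the labels do not say whether libraries came from separate cultures. The p-values measure the spread between these libraries, which may be technical. The same 5 stimuli at 6, 12 and 24 h gave 15 further libraries that show what became of the 2 h response.

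IFNγ is a cytokine by which activated T cells and NK cells act on tumour cells. Its receptor activates the kinases JAK1 and JAK2, which phosphorylate STAT transcription factors, and STAT dimers bind gamma-activated sites (GAS) in DNA. Transcription factors made in this way, IRF1 above all, then bind interferon response elements and extend the response to further genes. The labels name no inhibitor of protein synthesis, so direct targets and those that need newly made factors cannot be told apart here.

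The 2 IFNγ libraries held 7752892 counts (1 ng/ml) and 8370395 counts (100 ng/ml), against 6966135 (unstimulated), 5612907 (IL-2) and 6492681 (lymphotoxin) in the controls. Both IFNγ libraries were thus deeper than every control, and the numbers of genes called after thinning all 5 to equal depth are given with the other alternatives below. Mitochondrial transcripts took 1.27% and 1.23% of counts in the IFNγ libraries, against 1.17%, 1.20% and 1.28% in the controls. On the first principal component, with 64.8% of the variance, the IFNγ libraries lay at -23.4 and -26.4 and the controls between 15.9 and 17.7. Of the melanocyte lineage markers, 7 of 10 (Tyr, Tyrp1, Dct, Mlana, Sox10, Slc45a2 and Gpr143) had 0 counts in all 5 libraries, and Mitf held 91.2% of the list's summed level of 5.72 to 7.25 CPM (counts scaled to library size) in IFNγ and 6.63 to 7.35 CPM in control libraries. The melanoma identity given by the labels is thus not reflected in pigment genes. The list of neural crest and dedifferentiated melanoma genes summed to 2080 to 2280 CPM against 2100 to 2200 CPM. Axl alone held 90.1% of this level. Only 5 of the 10 genes passed the filter for testing, and Erbb3 had 0 counts in all 5 libraries. Of the 5 tested, 1 was called higher and none lower. This was Tfap2a, with 86.1 and 79.3 CPM with IFNγ, against 62.4, 51 and 57.2 CPM in the controls. T and NK cell markers were at 0 for 11 of 13 genes, and macrophage and dendritic cell markers for 6 of 11. Summed levels in IFNγ and control libraries were 3.09 to 4.23 against 1.6 to 2.16 CPM for T and NK cell genes, mostly Lck, 3.36 to 3.49 against 2.02 to 3.92 CPM for macrophage genes, 386 to 402 against 396 to 462 CPM for fibroblast genes, mostly Col3a1, and 10.9 against 10 to 10.5 CPM for endothelial genes. In bulk RNA, a change in the number of cells that express a gene and a change in RNA per cell cannot be told apart.

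The promoter sequences of responding genes show both kinds of binding motif. RefSeq promoters (GRCm38.p6, 250 bases before to 50 after the transcript start) were matched by symbol and searched on both strands for the GAS motif TTCNNNGAA, which is its own reverse complement, and for the IRF element, a direct repeat of GAAA with 2 bases between the copies (TTTC on the other strand). Overlapping matches of the 2 motifs were each counted. Of all 32851 promoters in the table, 8.3% held a GAS motif and 3.44% an IRF element. The windows below are from strongly responding genes with GAS motifs alone (Irf1, Irf8, Socs3), with both motifs (Igtp, Irgm2, Gbp7) or with IRF elements alone (Gbp2, Ifit3, Socs1). Capitals mark the motif matches, and every sequence runs 5′ to 3′ on the gene's own strand.
Irf1: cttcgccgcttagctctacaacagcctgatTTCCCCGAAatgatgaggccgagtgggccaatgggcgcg
Irf8: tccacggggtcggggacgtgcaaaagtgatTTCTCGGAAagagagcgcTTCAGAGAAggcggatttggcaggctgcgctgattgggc
Socs3: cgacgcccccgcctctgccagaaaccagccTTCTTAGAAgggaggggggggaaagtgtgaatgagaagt
Igtp: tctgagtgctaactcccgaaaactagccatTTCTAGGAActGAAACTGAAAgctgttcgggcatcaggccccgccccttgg
Irgm2: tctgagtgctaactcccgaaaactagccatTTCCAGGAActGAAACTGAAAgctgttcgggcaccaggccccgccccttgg
Gbp7: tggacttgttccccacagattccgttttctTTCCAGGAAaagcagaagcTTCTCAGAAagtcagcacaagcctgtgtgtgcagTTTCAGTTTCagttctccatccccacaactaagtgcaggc
Gbp2: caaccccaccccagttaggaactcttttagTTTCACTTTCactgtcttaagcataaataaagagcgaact
Ifit3: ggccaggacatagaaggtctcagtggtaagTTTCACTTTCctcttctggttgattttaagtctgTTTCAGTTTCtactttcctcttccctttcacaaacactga
Socs1: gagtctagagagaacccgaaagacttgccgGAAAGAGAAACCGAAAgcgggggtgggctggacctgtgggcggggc

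On GRCm38.p6, each window spans its motif matches with 30 bases on either side, and all matches shown lie before the transcript start. The windows cover chr11:53769894-53769962 (Irf1, plus strand), chr8:120736157-120736243 (Irf8, plus), chr11:117969482-117969550 (Socs3, minus), chr11:58199481-58199561 (Igtp, plus), chr11:58214872-58214952 (Irgm2, plus), chr3:142530200-142530322 (Gbp7, plus), chr3:142620574-142620643 (Gbp2, plus), chr19:34583343-34583446 (Ifit3, plus) and chr16:10785574-10785649 (Socs1, minus). The GAS motif of Irf1 began 90 bases before the start. In the neighbouring paralogs Igtp and Irgm2 the IRF element began 11 bases after the start of the GAS motif. Gm12185, Tgtp1 and Tgtp2, which belong to the same family or lie among its genes, had this start-to-start distance of 11 as well. In Socs1 a pair of overlapping IRF matches began 83 and 77 bases before the start. Over the 674 genes called higher at 2 h that had a promoter entry, 12.9% held a GAS motif and 13.5% an IRF element. The shares were 19% and 27.2% over the 158 matched genes called at least 2-fold higher, 5.29% and 2.52% over the 397 matched genes called lower, and 8.24% and 3.89% over the 8688 matched genes tested. Both motifs stood in 1 promoter for 6.96% of the genes at least 2-fold higher and for 0.483% of the genes tested. Stat3, Cd274, Cxcl9, Tap1, Psmb9, Hk2 and Cx3cl1, all described below, had no match in this window. A match is a string of letters and not a known binding site.

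At 2 h, 899 of 11399 tested genes were called higher with IFNγ (7.89%) and 523 lower (4.59%), at a Benjamini-Hochberg adjusted p under 0.05 in edgeR's quasi-likelihood test. The response was lopsided in size. Increases of at least 2-fold were called for 224 genes (1.97%), decreases of at least 2-fold for 17 (0.149%). Both counts of called genes depended on single libraries, the decreases more so. Decreases numbered 322 without the IL-2 library and 265 without the lymphotoxin library, and increases 709 and 643. Both counts were also lower without the 100 ng/ml library. Both IFNγ libraries lay above all 3 controls for 2211 genes (19.4%) and below all 3 for 2178 (19.1%), and the smallest p that an exact permutation of 2 against 3 libraries can give is 0.1. The median log2 change over all tested genes was -0.01. Leaving out predicted genes with names such as Gm and Rik, the 12 largest increases were in Cxcl9, Serpina3f, Apol6, BC023105, Irf8, Icam1, Tubb3, Gbp10, Batf2, Irf1, Lrrtm2 and Iigp1.

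**Figure D1:**
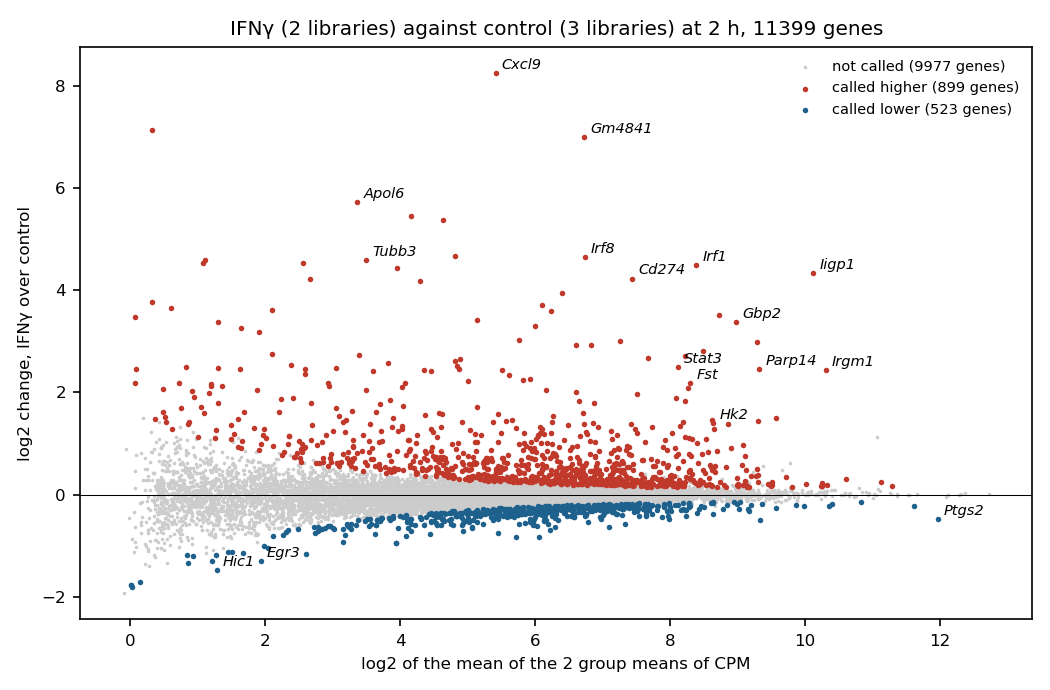
Log2 change of IFNγ over control at 2 h against the log2 of the mean level in CPM for the 11399 tested genes, with called genes in colour. Increases reach a log2 change of 8.25 (Cxcl9), while the 523 decreases called reach no lower than -1.81.

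Within the signalling pathway, some STAT transcripts rose and those of the receptor chains did not pass the test. Stat3, a transcription factor best known from IL-6 signalling, stood at 477 and 468 CPM with 1 and 100 ng/ml IFNγ, against 81.3, 86.1 and 84.1 CPM in the unstimulated, IL-2 and lymphotoxin controls. This is a log2 change of 2.50 ± 0.05 (SE here and below, 2 against 3 libraries, adjusted p = 1.03e-17). Both IFNγ libraries lay far above every control, relative to the spread within the groups. Stat2, a part of the type I interferon complex, rose by 1.07 ± 0.05, Stat5b by 0.63 ± 0.10 and Jak2 by 0.50 ± 0.07. Ifngr1 and Ifngr2, the receptor chains, did not pass the test, with log2 changes of -0.08 ± 0.12 and -0.26 ± 0.11, nor did Jak1 at 0.08 ± 0.05, Stat5a at 0.43 ± 0.18 and Stat6 at -0.02 ± 0.06. Of the 11 tested genes of the receptor and JAK-STAT list, 5 rose and none fell, with a median log2 change of 0.43.

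Among transcription regulators linked to interferon, 11 of 18 tested rose and none fell, 6 of them at least 2-fold, with a median of 0.53. Irf1, the factor that carries the second wave of the response, had 641 and 643 CPM with IFNγ, against 26.5, 31.6 and 28 CPM in the controls. Its change of 4.49 ± 0.06 had the smallest adjusted p of all genes (9.74e-20). Irf8, a relative of IRF1 best known from myeloid cells, had 204 and 206 CPM with IFNγ and 6.77, 9.27 and 8.63 CPM in the controls, a change of 4.65 ± 0.09 (adjusted p = 5.3e-18). The 2 doses gave nearly the same level of both factors. Nlrc5, the transactivator of MHC class I genes, had 330 and 374 CPM with IFNγ, against 55.9, 59.7 and 50.4 CPM in the controls (2.67 ± 0.07, adjusted p = 1.34e-15). Batf2, a basic leucine zipper factor, rose from a low level by 4.53 ± 0.31. Irf2, which competes with IRF1 for its sites, rose by 1.21 ± 0.08, while Irf9 and Irf7, which serve type I interferon, rose by 0.48 ± 0.06 and 0.37 ± 0.06. Ciita, the transactivator of MHC class II genes, was below the filter, with 15 counts over the 2 IFNγ libraries and 0 over the 3 controls. Against a floor of 3 counts over the controls, it was at least 6.15-fold higher, while the 95% counting interval of the ratio begins at 4.41.

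A few feedback inhibitors of the pathway rose as well. Socs1, which blocks JAK kinases, had 36.5 and 32.3 CPM with IFNγ, against 6.34, 7.31 and 5.55 CPM in the controls (2.43 ± 0.14, adjusted p = 9.91e-11). Socs3, an inhibitor of gp130 cytokine receptors, had 100 and 86.8 CPM with IFNγ, against 16.7, 21.9 and 20.5 CPM in the controls (2.25 ± 0.10, adjusted p = 2.31e-12). For both inhibitors each IFNγ library lay well above every control. Trafd1, a negative regulator of innate signalling, rose by 1.59 ± 0.07, Cish by 0.71 ± 0.19 and Usp18, which restrains type I interferon signalling, by 0.48 ± 0.05. Socs2 fell by 0.61 on the log2 scale, with an SE of 0.16 (adjusted p = 0.0137). The calls of Socs2 and Cish were lost in DESeq2 (adjusted p = 0.109 and 0.174) and without the 100 ng/ml library (0.0941 and 0.23). Socs2 was also lost without the unstimulated or the IL-2 library (0.0574 and 0.0535), and Cish without the unstimulated or the lymphotoxin library (0.0665 and 0.0516). Of 15 tested inhibitors, 5 rose and 1 fell, with a median of 0.12.

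**Figure D2:**
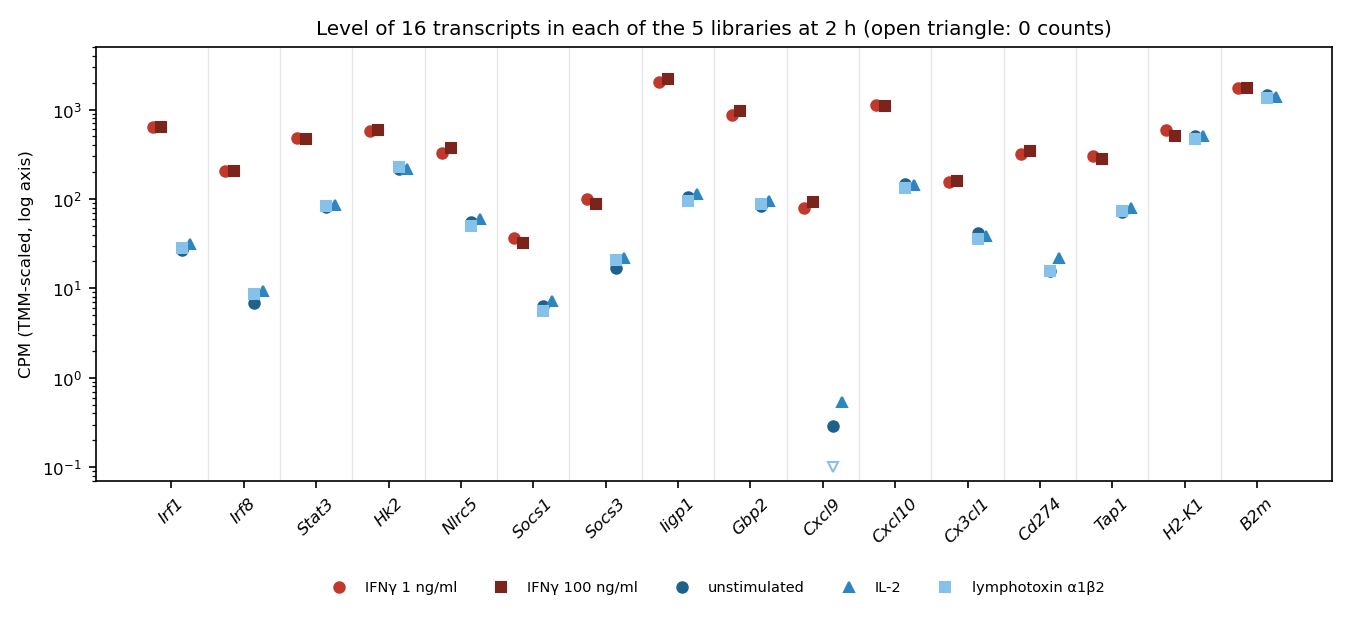
Level in TMM-scaled CPM, on a log axis, of 16 transcripts in each of the 5 libraries at 2 h, with IFNγ libraries left of the controls for each gene. The IFNγ points of Irf1 sit at 641 and 643 CPM, above controls of 26.5 to 31.6 CPM, while those of H2-K1 overlap the controls.

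Every tested member of the 2 families of interferon-inducible GTPases rose. These proteins attack the vacuoles of intracellular parasites and bacteria. All 11 immunity-related GTPases and all 10 tested guanylate-binding proteins were called higher, each at least 2-fold, with medians of 3.52 and 3.16. An 11th listed guanylate-binding protein, Gbp2b, had too few counts for testing (3 and 0 with IFNγ, against 0, 0 and 1). Gbp8, Gbp10, Gbp11 and Gm12250 passed the filter through the IFNγ libraries alone, so their calls follow in part from the filter. Iigp1 had 2020 and 2220 CPM with IFNγ, against 105, 114 and 95.7 CPM in the controls (4.34 ± 0.06, adjusted p = 4.46e-18). Irgm1, a regulator of the family, had 2100 and 2170 CPM with IFNγ, against 377, 423 and 383 CPM in the controls (2.44 ± 0.05). Neither gene was silent in the controls. Igtp rose by 3.52 ± 0.07, Irgm2 by 2.81 ± 0.05 and Gm12250 by 5.37 ± 0.18. Gbp2 had 867 and 967 CPM with IFNγ, against 82.8, 95.6 and 88.6 CPM in the controls (3.37 ± 0.06, adjusted p = 4.56e-18). Gbp4 rose by 3.72 ± 0.14, Gbp7 by 2.71 ± 0.06 and Gbp3 by 1.35 ± 0.05. Gbp10 had 63 counts over the IFNγ libraries and 3 over the controls, a ratio of 25.8 with a 95% counting interval of 8.44 to 129. Members of both families are near-identical in places, Tgtp1 and Tgtp2 above all, and may hold reads of one another. Of the 21 tested genes, 11 had a promoter entry, of which 10 held an IRF element and 7 a GAS motif.

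Of 8 tested chemokines, Cxcl9, Cxcl10, Cx3cl1, Ccl2 and Ccl7 rose and none fell, with a median of 1.13. Cxcl9, a ligand of the chemokine receptor CXCR3 on T cells, had 78.7 and 91.5 CPM with IFNγ, against 0.288, 0.535 and 0 CPM in the controls. Its log2 change of 8.25 ± 0.23 was the largest among the genes called (adjusted p = 1.93e-15), and from so few control counts its size is uncertain. Cxcl10, another CXCR3 ligand, had 1120 and 1090 CPM with IFNγ, against 148, 142 and 131 CPM in the controls (2.98 ± 0.05, adjusted p = 2.2e-18). Cxcl11, the third of these ligands, was below the filter with 18 counts against 1, a ratio of 22.1 (95% counting interval 3.49 to 922). Cx3cl1, or fractalkine, had 153 and 159 CPM with IFNγ, against 41.9, 38.2 and 35.3 CPM in the controls (2.02 ± 0.07, adjusted p = 6.54e-14). The monocyte attractants Ccl2 and Ccl7 rose by 1.55 ± 0.07 and 0.70 ± 0.15. Ccl5 lay at 12.6 and 11.9 CPM with IFNγ, within the 13.4, 11.1 and 11.2 CPM of the controls, and did not pass the test (0.04 ± 0.15), nor did Cxcl1 (0.34 ± 0.34) and Cxcl12 (0.22 ± 0.15).

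In the list of cytokines and cytokine receptors, 9 of 15 tested rose and none fell, with a median of 0.56. Il15ra, which presents IL-15 to lymphocytes, rose by 3.19 ± 0.31, and its ligand Il15, below the filter, had 27 counts in the IFNγ libraries and 3 in the controls (ratio 11.1, 95% counting interval 3.4 to 57). Tnfsf10, which encodes the death ligand TRAIL, had 12.5 and 15.8 CPM with IFNγ, against 1.73, 3.03 and 2.93 CPM in the controls (2.48 ± 0.22). Osmr rose by 1.89 ± 0.23, Il18bp, which neutralises IL-18, by 1.16 ± 0.25 (adjusted p = 0.06 in DESeq2), and the TNF receptor Tnfrsf1a by 0.95 ± 0.06. Ifnar2, a chain of the type I interferon receptor, rose by 0.86 ± 0.11, whereas Ifnar1 did not pass the test (-0.04 ± 0.06). Csf1, the macrophage growth factor, rose by 0.55 ± 0.05.

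In antigen presentation, genes of peptide supply rose at 2 h, while the class I chains that rose did so by less than 2-fold. Tap1, a subunit of the peptide transporter, had 301 and 281 CPM with IFNγ, against 71.8, 78.6 and 74.1 CPM in the controls (1.96 ± 0.06, adjusted p = 4.33e-15). Psmb9, an immunoproteasome subunit, had 24.4 and 26.4 CPM with IFNγ, against 7.92, 9.27 and 6.01 CPM in the controls (1.73 ± 0.15, adjusted p = 5.23e-08). Tapbpl, a peptide editor, rose by 2.18 ± 0.14, Psmb10 by 1.44 ± 0.12, Tap2 by 1.42 ± 0.11 and Psmb8 by 1.16 ± 0.08. Erap1, a peptide-trimming enzyme, rose by 0.49 ± 0.07. Of 13 tested supply and loading genes, 10 rose and none fell, with a median of 1.02, and the 3 others were the general chaperones Calr, Canx and Pdia3 (0.05, 0.02 and 0.02). H2-K1, a classical class I heavy chain, had 596 and 502 CPM with IFNγ, against 503, 509 and 470 CPM in the controls, and the groups overlapped (0.16 ± 0.06, adjusted p = 0.144). H2-D1 likewise did not pass the test (0.11 ± 0.06, adjusted p = 0.242). Without the 100 ng/ml library both were called, at adjusted p of 0.00173 for H2-K1 and 0.0108 for H2-D1, and with no low count filter H2-K1 was called (0.0189). B2m, the shared light chain, had 1740 and 1720 CPM against 1470, 1380 and 1360 CPM (0.30 ± 0.04, adjusted p = 5.78e-05). Of 10 tested class I chains, 6 rose, none of them 2-fold, with a median of 0.64, and H2 genes can share reads. None of the MHC class II list passed the filter, and H2-Ab1, H2-Eb1, H2-DMb1 and Cd74 had 0 counts in all 5 libraries, which allows up to 3 counts per library.

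Of the ligands seen by T cells, Cd274 (PD-L1, the ligand that restrains T cells through PD-1) had 315 and 344 CPM with IFNγ, against 15.7, 21.9 and 15.7 CPM in the controls. The change of 4.23 ± 0.09 (adjusted p = 1.58e-15) was set by groups that lay far apart. Icam1, an adhesion ligand, was nearly absent in the controls, with 65 counts against 3 (ratio 26.6, 95% counting interval 8.72 to 132). Its level with IFNγ was also low, at 3.89 and 4.48 CPM. Vcam1 rose by 0.81 ± 0.16, Cd47, the signal that restrains phagocytosis, by 0.73 ± 0.06, and Lgals9 by 0.37 ± 0.06. Of 8 tested genes, 5 rose and none fell, with a median of 0.55. Pdcd1lg2, for PD-L2, had 0 counts with IFNγ and 1 in the controls.

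Genes best known from antiviral type I interferon responses rose in number but by modest amounts. Of 37 tested, 31 were called higher and none lower, 10 of them at least 2-fold, with a median of 0.68. Rsad2, or viperin, had 1090 and 1150 CPM with IFNγ, against 412, 406 and 378 CPM in the controls (1.49 ± 0.05, adjusted p = 1.54e-14). Samhd1, a nucleotide hydrolase, had 483 and 514 CPM with IFNγ, against 117, 126 and 111 CPM in the controls (2.08 ± 0.06, adjusted p = 7.61e-16). In both genes the groups were well separated, and the controls already held the transcript. Ifit2, an RNA-binding effector, rose by 1.46 ± 0.06, Ifit3 by 1.28 ± 0.05 and Mx1, which blocks viral nucleocapsids, by 1.18 ± 0.14, whereas Isg15, the ubiquitin-like modifier, rose by 0.49 ± 0.06 and Oasl1 by 0.20 ± 0.07, a call lost without any 1 of the 5 libraries (adjusted p = 0.101 to 0.141). Of 13 tested genes of the PARP and ubiquitin-like list, 12 rose, with a median of 1.15. Parp14, an ADP-ribosyl transferase, had 1010 and 1150 CPM with IFNγ, against 192, 215 and 186 CPM in the controls (2.46 ± 0.06), and its neighbours Dtx3l and Parp9 rose by 1.84 ± 0.06 and 1.20 ± 0.05. The exception was Rnf213, at 2470 and 3380 CPM against 1300, 1570 and 1150 CPM, where the spread within the groups was wide (1.13 ± 0.23, adjusted p = 0.081 in edgeR, 8.13e-05 in DESeq2). Of 10 tested TRIM genes 9 rose, with a median of 0.91, led by the antibody receptor Trim21 at 2.05 ± 0.08.

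Of 17 listed serpins, apolipoproteins L, Schlafens and Ly6 proteins, 12 were tested. All 12 rose, 8 of them at least 2-fold, with a median of 1.20. Serpina3g, Serpina3h, Serpina3i, Serpina3n and Serping1 had too few counts for testing. Apol6 and Serpina3f passed the filter through the IFNγ libraries alone, so their calls follow in part from the filter. Apol6 had 18.9 and 21.8 CPM with IFNγ, against 0.288, 0.713 and 0.154 CPM in the controls (5.73 ± 0.29, adjusted p = 1.59e-11). Serpina3f had 39 counts in the IFNγ libraries and 0 in the controls, at least 16-fold higher against a floor of 3 counts over the controls, with a 95% counting interval that begins at 12.4. Slfn8 and Slfn5, of the growth-regulatory Schlafen family, rose by 2.22 ± 0.11 and 2.18 ± 0.20. Ly6a, the surface protein Sca-1, rose by 1.26 ± 0.10. In the cell death list 15 of 26 tested rose and 1 fell, with a median of 0.36. Casp4, the caspase that senses lipopolysaccharide, had 22.4 and 26.1 CPM with IFNγ, against 4.9, 2.67 and 4.47 CPM in the controls (2.57 ± 0.18, adjusted p = 2.05e-09). Fas, the death receptor, rose by 2.46 ± 0.34, Zbp1, a sensor of Z-form nucleic acid, by 1.20 ± 0.08 and Casp1 by 1.05 ± 0.14. Among the BCL2 family, the pro-death Bcl2l11 and Bak1 rose by 0.99 ± 0.10 and 0.72 ± 0.07, Bmf fell by 0.71 (a call lost without the 100 ng/ml, the IL-2 or the lymphotoxin library, adjusted p = 0.247, 0.164 and 0.0864), and the survival genes Bcl2, Bcl2l1 and Mcl1 did not pass the test (-0.08, -0.11 and -0.00). Of the metabolic list 5 of 7 tested rose, with a median of 0.48. Hk2, a hexokinase, had 576 and 585 CPM with IFNγ, against 218, 214 and 225 CPM in the controls (1.41 ± 0.05, adjusted p = 2.23e-14). Acod1, the itaconate-making enzyme, rose by 2.76 ± 0.29 and Wars, tryptophanyl-tRNA synthetase, by 1.17 ± 0.05, while Nos2 had 0 counts in all 5 libraries.

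**Figure D3:**
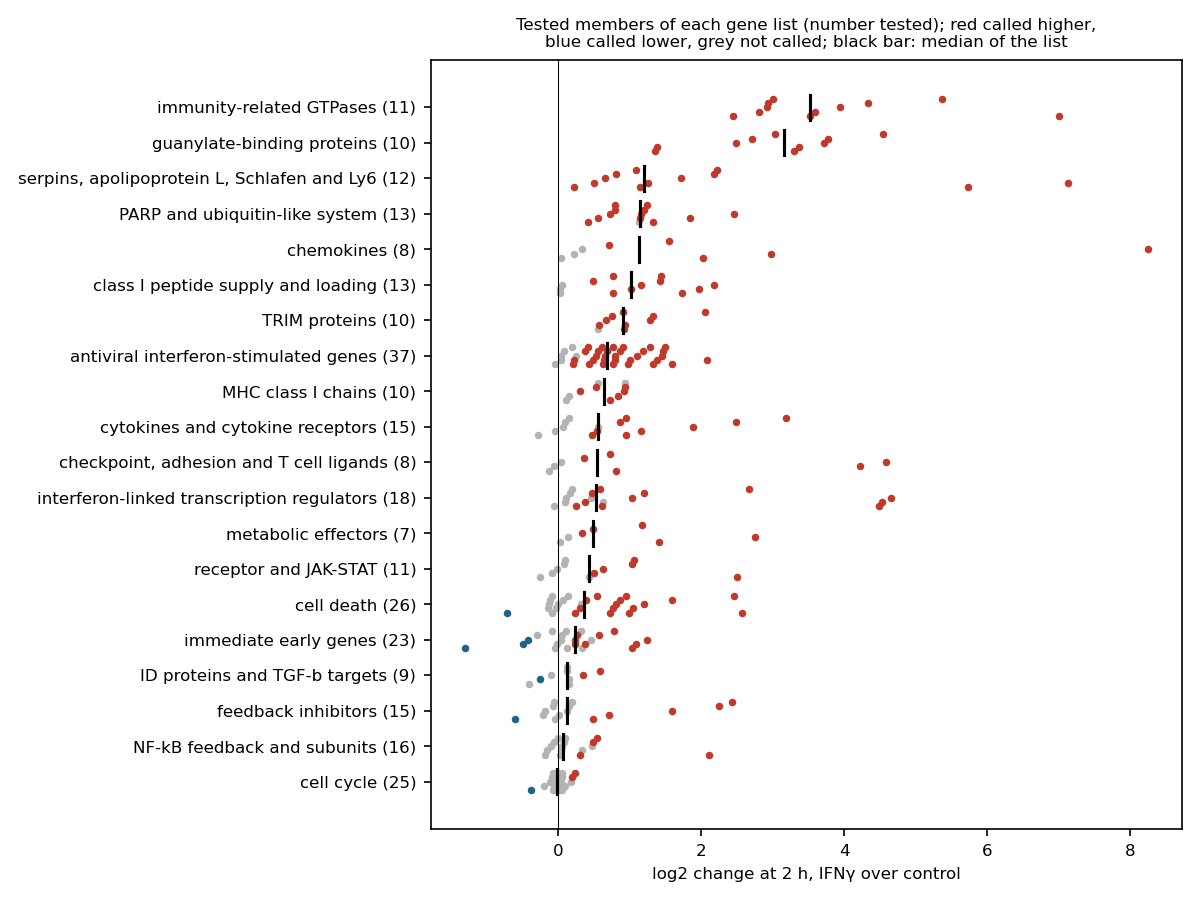
Log2 change at 2 h, IFNγ over control, of every tested member of 20 gene lists, 1 point per gene, with the list's median as a black bar. The medians run down the page from 3.52 for the immunity-related GTPases to -0.01 for the cell cycle genes.

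Of 25 tested cell cycle genes 2 rose and 1 fell, with a median of -0.01, which is near the 7.89% higher and 4.59% lower over all genes. Of 16 tested NF-kB subunits and feedback genes 4 rose and none fell, with a median of 0.07, and only Tnip3, a brake on NF-kB, rose at least 2-fold (2.11 ± 0.14). Of 9 tested ID and TGF-β target genes 2 rose and 1 fell, with a median of 0.13. The immediate early genes went both ways, with 9 of 23 tested rising and 3 falling, and a median of 0.24. Egr2, a zinc finger factor, rose by 1.24 ± 0.22 and Zfp36, which destabilises cytokine messages, by 1.09 ± 0.08. Jun, an AP-1 subunit, had 303 and 230 CPM with IFNγ, against 136, 131 and 124 CPM in the controls (1.03 ± 0.11, adjusted p = 0.000998). Nr4a1 fell by 0.49, Ier3 by 0.42 and Egr3 by 1.30. Egr3 had 3.36 and 1.12 CPM with IFNγ, against 6.05, 4.99 and 5.24 CPM in the controls, so that the 2 IFNγ libraries differed more from each other than the 3 controls did. Its call was lost without the 100 ng/ml or the lymphotoxin library (adjusted p = 0.199 and 0.0557).

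Among the decreases, the smallest adjusted p belonged to Ptgs2, the inducible cyclooxygenase of prostaglandin synthesis, named after its values were seen. It had 3390 and 3300 CPM with IFNγ, against 4590, 4680 and 4620 CPM in the controls, a log2 change of -0.47 ± 0.04 (adjusted p = 2.83e-08). This is a small fall in an abundant message with tight groups. Larger decreases sat at low levels, as in the transcriptional repressor Hic1, which had 1.21 and 1.37 CPM with IFNγ, against 3.89, 3.03 and 3.85 CPM in the controls (-1.47 ± 0.33, adjusted p = 0.0043). The secreted signals Wnt10a and Lefty1 had log2 changes of -1.71 and -1.76, with adjusted p of 0.0341 and 0.0459. Other large decreases were in Fgf5, Adora2a, Smad9, Eva1c and Cd300lb. DESeq2 called none of these 8 low-level genes except Eva1c, with Hic1 at an adjusted p of 0.0546. With either IFNγ library left out, Wnt10a, Lefty1 and Cd300lb were no longer called by edgeR, and Cd300lb also not without the lymphotoxin library (adjusted p = 0.17). Adora2a and Smad9 lost their calls without any 1 of the 5 libraries, and Fgf5 without the 1 ng/ml library (adjusted p = 0.334) or any 1 of the controls (0.0723 to 0.159).

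The strongly induced genes lay close together in the genome. Of the 224 genes at least 2-fold higher, 38.4% had another such gene within 100 kb, against 4.04% of the 11152 other tested genes on the autosomes and X. On GRCm38 the largest group was 11 genes of the Ifi200 family, chr1:173468485-174031810, from Ifi206 to Ifi205. Other groups were 9 genes around Irgm1, Tgtp1 and Ifi47 at chr11:48861968-49135387, 6 genes around Iigp1 on chromosome 18, 6 guanylate-binding proteins at chr5:105014150-105346472 and 4 at chr3:142493978-142638008. Psmb9, Tap1, Psmb8 and Tap2 formed a run of 4 at chr17:34181988-34216321, and Parp14, Dtx3l and Parp9 a run of 3 at chr16:35832874-35972605. Overlapping gene models and paralogs that share reads add to such counts, and their part was not tested.

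The doses of 1 and 100 ng/ml differed little over the induced genes. Over the 224 genes at least 2-fold higher, the median log2 difference of 100 minus 1 ng/ml was 0.08, with 150 genes higher at 100 ng/ml and none differing by 2-fold. For 41 of the 224 the difference was larger than the range over the 3 controls, whose median was 0.294, against 3903 of all 11399 tested genes, with a median range of 0.173. Over all tested genes 93 differed by 2-fold between the doses. There is 1 library at each dose and so no test. The comparison that chose the 224 took both doses as replicates of the same group. A gene with a large dose difference was therefore less likely to be called, and the small differences among the 224 follow in part from that choice. At 0.01 ng/ml the median log2 ratio to the mean of the controls was 0.33, against 1.46 at 1 ng/ml and 1.5 at 100 ng/ml, and 24, 196 and 215 of the 224 genes reached 2-fold. The 224 were chosen in the 1 and 100 ng/ml libraries, so that their high counts there follow from the choice. Over all 11399 tested genes, 33, 216 and 257 reached 2-fold at 0.01, 1 and 100 ng/ml. Irf1 had 102 CPM at 0.01 ng/ml, 641 CPM at 1 ng/ml and 643 CPM at 100 ng/ml, beside a control mean of 28.7 CPM. The level of Irf1 was thus higher at 1 than at 0.01 ng/ml and nearly equal at 1 and 100 ng/ml. Iigp1 followed with 348, 2020 and 2220 CPM beside 105 CPM, whereas Socs3 had 20 CPM at 0.01 ng/ml, near its control mean of 19.7 CPM, and 100 and 86.8 CPM at the higher doses.

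Other stimuli at 2 h, each 1 library set against the same 3 controls, are given side by side and without a test. Over the same 224 genes the median log2 ratio was 1.70 with 100 ng/ml IFNγ plus 10 ng/ml TNFα. It was 1.45 with 5000 U/ml IFNA1 and 0.31 with 10 ng/ml TNFα. The 224 were chosen in the libraries with IFNγ alone, which favours IFNγ on these genes. Over all 11399 tested genes, 342 reached 2-fold with IFNγ plus TNFα, 274 with IFNA1 and 91 with TNFα. The counts were 216 and 257 with 1 and 100 ng/ml IFNγ alone. Irf8 had 307 CPM with IFNγ plus TNFα, 22.8 CPM with IFNA1 and 10.4 CPM with TNFα, beside 204 and 206 CPM with IFNγ alone and a control mean of 8.22 CPM. Tubb3, a neuronal tubulin, had 18.6, 1.04 and 0.296 CPM with these 3 stimuli, beside 22.2 and 21.4 CPM with IFNγ alone and 0.886 CPM in the controls. Fst, the activin antagonist follistatin, named after its values were seen, had 609, 112 and 101 CPM, beside 506 and 528 CPM with IFNγ alone and 114 CPM in the controls. For these 3 genes the IFNA1 library lay much nearer to the controls than to IFNγ. The antiviral Rsad2 had 4050 CPM with IFNA1, beside 1090 and 1150 CPM with IFNγ and 399 CPM in the controls, and Tnfsf10 had 72.8 CPM with IFNA1, beside 12.5 and 15.8 CPM with IFNγ and 2.56 CPM. Cd274 had 397 CPM with IFNA1, beside 315 and 344 CPM with IFNγ. Cxcl9 had 689 CPM with IFNγ plus TNFα, beside 2.22 CPM with TNFα alone and 78.7 and 91.5 CPM with IFNγ alone. Icam1 had 63.8 CPM with IFNγ plus TNFα, beside 2.37 CPM with TNFα and 3.89 and 4.48 CPM with IFNγ.

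**Figure D4:**
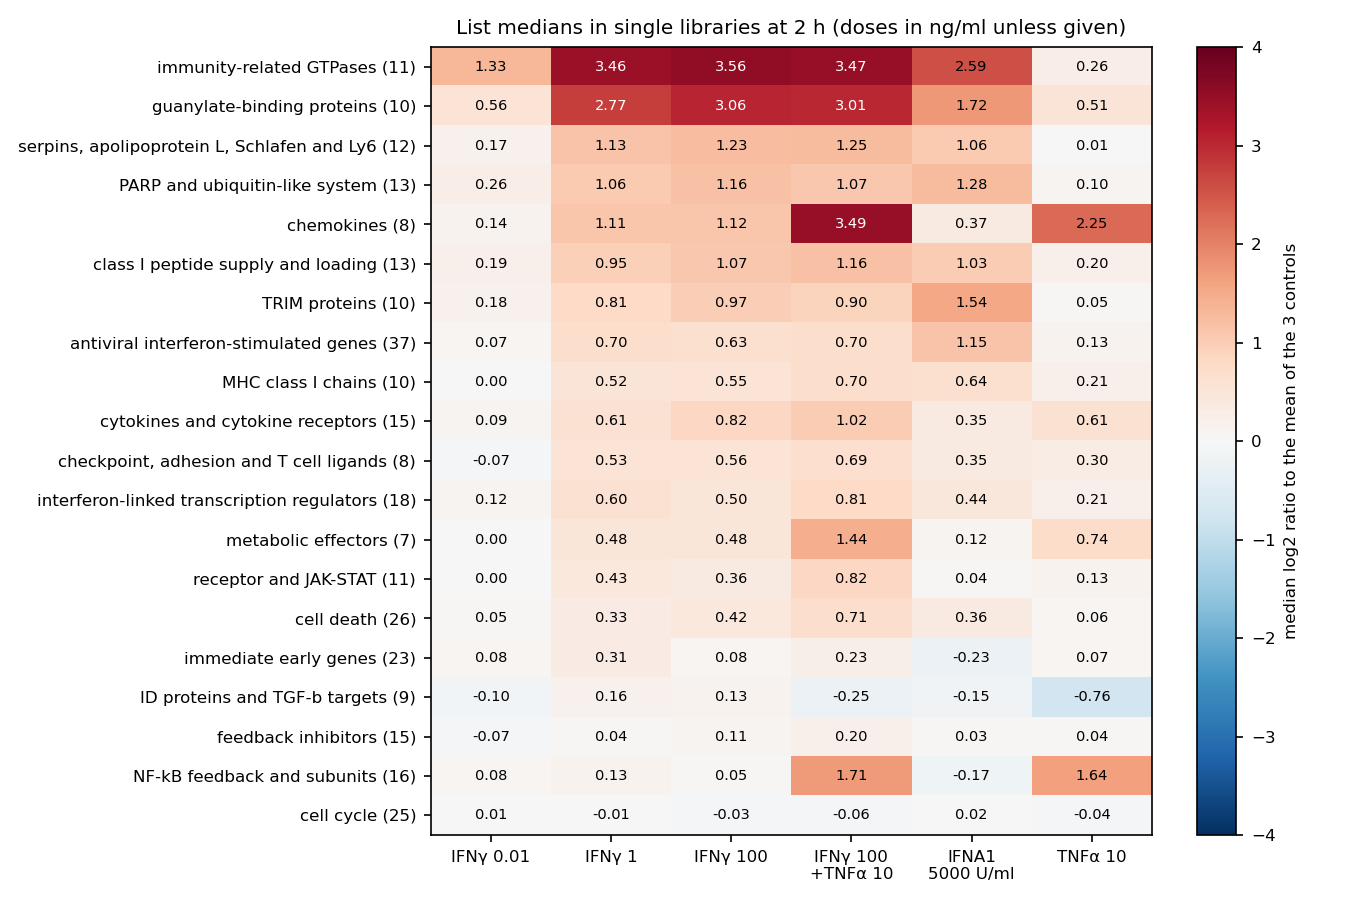
Median log2 ratio to the mean of the 3 controls, over the tested members of each of 20 lists, in 6 stimulated libraries at 2 h. The GTPase lists stand at 3.56 and 3.06 with 100 ng/ml IFNγ and at 2.59 and 1.72 with IFNA1, and the chemokines at 3.49 with IFNγ plus TNFα.

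At later durations, in libraries the 2 h comparison did not use, most of the 2 h increases were still present. In a fit of the 20 libraries of the same 5 stimuli, 1860 of 12118 tested genes were higher and 1309 lower with IFNγ at 6 h (15.3% and 10.8%), 2166 and 1819 at 12 h (17.9% and 15%), and 2721 and 2590 at 24 h (22.5% and 21.4%). Without the 100 ng/ml library of the same duration, the counts were 1176 and 537 at 6 h, and 1061 genes were lower at 12 h. Of the 224 genes at least 2-fold higher at 2 h, 203, 192 and 196 were called higher at 6, 12 and 24 h (90.6%, 85.7% and 87.5%). Of all 899 increases, 686, 621 and 610 were called higher at these durations (76.3%, 69.1% and 67.9%), and 18, 40 and 79 were called lower. Of the 523 genes lower at 2 h, 197, 205 and 202 were called lower at 6, 12 and 24 h, and 42, 62 and 92 were called higher. Read the other way, 431 of the 561 genes at least 2-fold higher at 24 h were tested at 2 h, and 264 of these had been called higher then.

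The effect itself changed with time for many genes. The IFNγ effect at 6 h was larger (more positive) than at 2 h for 723 genes (5.97%) and smaller for 406 (3.35%). At 24 h it was larger than at 2 h for 1758 (14.5%) and smaller for 1654 (13.6%). The counts for 6 h against 2 h were 463 and 262 without the 1 ng/ml library of 2 h, and 338 and 178 without the 100 ng/ml library of 6 h. Genes picked for a large change at 2 h tend to show smaller ones elsewhere through that choice alone. Of the 224, the effect at 24 h was larger than at 2 h for 59 and smaller for 56. In that fit, Irf8 had log2 changes of 4.64, 3.73, 2.20 and 1.34 at 2, 6, 12 and 24 h, and its effect at 24 h differed from that at 2 h by -3.30 (SE and adjusted p of such differences are given with the flagged results below). Stat3 had 2.49, 1.71, 1.07 and 1.33, and Hk2 1.40, 0.62, 0.42 and 0.40. For both, the effect at 6 h had already dropped by 0.78 relative to 2 h. Cx3cl1 had 2.01, 1.93, 0.09 and -0.88, so that the sign at 24 h was the reverse of that at 2 h. Irf1, Iigp1 and Cd274 stayed high, with 3.47, 3.12 and 3.55 at 24 h.

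For other genes the effect was larger at 24 h than at 2 h. H2-K1 had log2 changes of 0.15, 0.61, 0.89 and 1.86 at 2, 6, 12 and 24 h. All 11 class I chains tested in this fit were called higher at 24 h, with a median of 2.30, and for all 11 the effect at 24 h was larger than at 2 h. Psmb9 had 1.72, 3.11, 2.59 and 3.36, and Ly6a 1.25, 2.82, 2.42 and 4.19. Ccl5 had 0.03, -0.05, 1.54 and 2.93, and Il6, an inflammatory cytokine, 0.55, 1.49, 3.15 and 4.36. Ptgs2, lower at 2 h, had 0.41, 0.64 and 1.11 at 6, 12 and 24 h. Each effect is set against controls of the same duration, so these are differences between effects and not between levels.

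**Figure D5:**
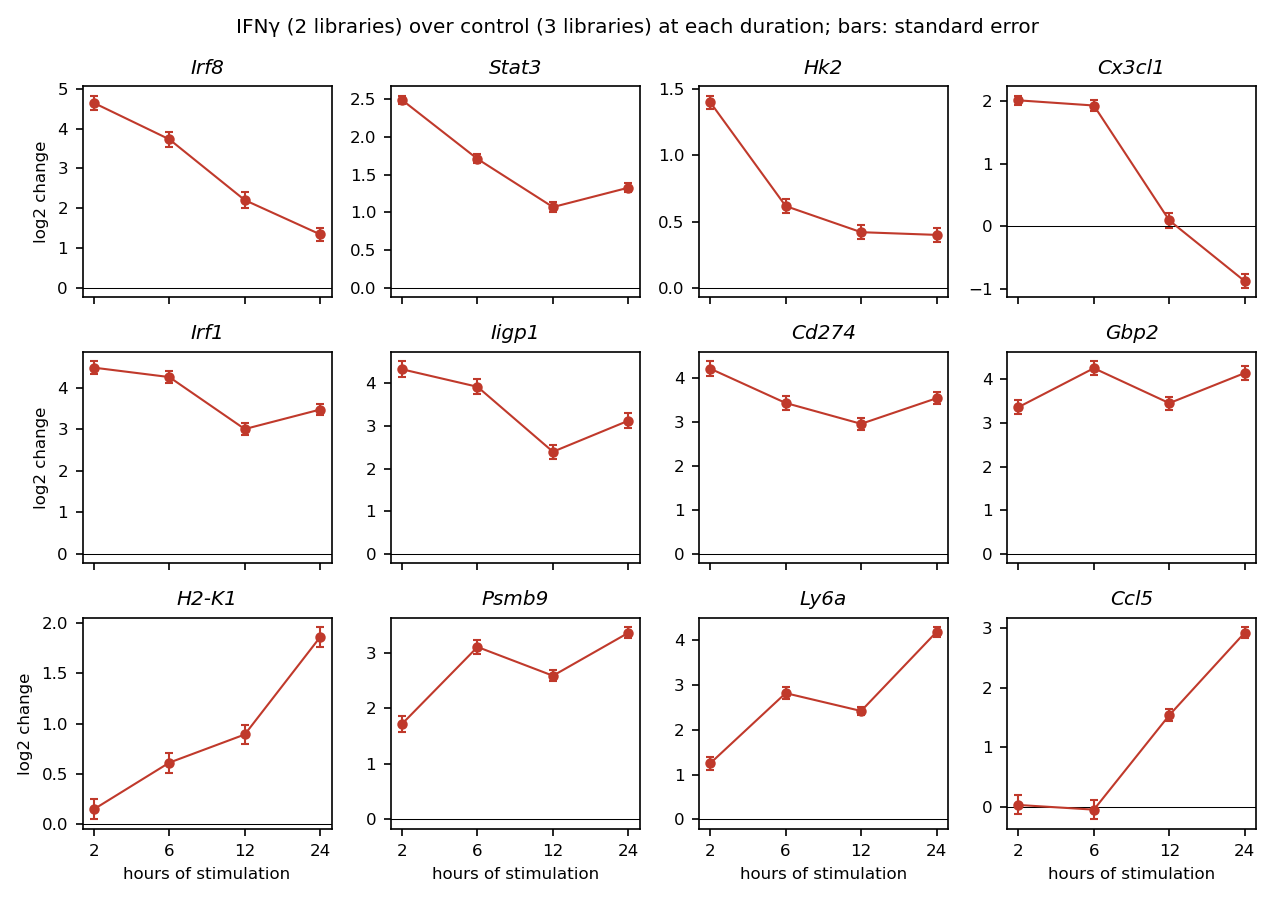
Log2 change of IFNγ (2 libraries) over control (3 libraries) after 2, 6, 12 and 24 h for 12 genes, with standard errors from the 20-library fit. Irf8 runs down to 1.34 at 24 h and Cx3cl1 to -0.88, while H2-K1 climbs to 1.86 and Ccl5 to 2.93.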

How the data were processed

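RNA sequencing libraries of NMM cells were read as the authors' deposited raw counts per gene. Per the labels, RNA of high integrity was made into stranded TruSeq mRNA libraries. Per the submitters' processing notes, reads were aligned with HISAT to GRCm38, while for the counting tool, its strand setting and the annotation, the sources used here name nothing. Genes that overlap, and paralogs, may share reads. Groups were taken from the labels.

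Genes with too few counts were removed with edgeR's filterByExpr (minimum count 10, minimum total 15), which left 11399 of 49671 genes at 2 h and 12118 in the 20-library fit. A gene could pass through the IFNγ libraries alone, as Cxcl9, Icam1, Batf2, Il15ra and Fas did at 2 h. The calls of such genes follow in part from the filter. edgeR 4.0.16 (R 4.3.3) fitted a robust quasi-likelihood model with TMM scaling to the 5 libraries of 2 h (3 residual degrees of freedom), and a model with 1 term per group and duration to 20 libraries (12 residual degrees of freedom), from which later effects and their differences from 2 h were tested. P-values were adjusted over all tested genes by Benjamini-Hochberg, with 0.05 as threshold. SE was the log2 change divided by the root of the F statistic. CPM values were TMM-scaled over all 48 libraries, and single-library log2 ratios used a prior count of 2. Counting intervals cover 95%, floors are 3 counts, and both cover counting error only. One count was worth 0.144 to 0.178 CPM in the 2 h controls. The test was checked on simulated counts. DESeq2 1.42.0, other scaling and filters, thinning, left-out libraries and stimulus as a block were alternatives.

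Members and gene lists were chosen with earlier results of these data known. Named genes are list members or the 12 largest called changes each way (10 for differences between durations), without predicted genes; others are marked as chosen after their values were seen. A few genes are not reported here.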

Additional observations from a re-analysis of the deposited data

Results flagged for a closer look

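The IFNγ effect differed between durations, by a test of the difference itself in the 20-library edgeR quasi-likelihood fit with Benjamini-Hochberg adjustment. Against 2 h, it was larger for 723 and smaller for 406 genes at 6 h, and larger for 1758 and smaller for 1654 genes at 24 h.

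Among genes with a smaller effect later, the differences in log2 change were as follows. Irf8 differed by -3.30 ± 0.28 at 24 h (SE, adjusted p = 5.33e-07), Irf1 by -1.01 ± 0.22 (adjusted p = 0.00432) and Iigp1 by -1.21 ± 0.25 (adjusted p = 0.00303). Stat3 differed by -0.78 ± 0.08 at 6 h and -1.16 ± 0.08 at 24 h (adjusted p = 7.3e-09 and 8.25e-15). Hk2 differed by -0.78 ± 0.07 at 6 h and -1.0 ± 0.07 at 24 h (adjusted p = 1.21e-10 and 8.25e-15). Trim21 differed by -1.06 ± 0.11 at 6 h and -0.72 ± 0.11 at 24 h (adjusted p = 1.93e-09 and 6.97e-07). Cx3cl1 differed by -2.89 ± 0.13 at 24 h (adjusted p = 7.9e-22) and Fas by -1.82 ± 0.59 at 6 h (adjusted p = 0.0423), a call lost without any 1 of 7 libraries (adjusted p = 0.0634 to 0.164). Sgk2, a serum-regulated kinase with under 5 CPM in every library of 2 h, differed by -5.37 ± 0.69 at 24 h (adjusted p = 3.41e-08).

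Other genes had a larger effect later. H2-K1 differed by 1.71 ± 0.14 at 24 h (adjusted p = 8.57e-07). Psmb9 differed by 1.39 ± 0.21 at 6 h and 1.64 ± 0.20 at 24 h (adjusted p = 1.22e-05 and 7.4e-09), and Erap1 by 1.05 ± 0.09 and 1.14 ± 0.09 (adjusted p = 1.43e-11 and 6.85e-14). Gbp4 differed by 1.90 ± 0.45 at 6 h (adjusted p = 0.019), a call lost without the 100 ng/ml library of 6 h (adjusted p = 0.0567) or the IL-2 library of 2 h (adjusted p = 0.0695). At 24 h, Ly6a differed by 2.94 ± 0.20, Ccl5 by 2.90 ± 0.19 and Il6 by 3.81 ± 0.42 (adjusted p = 1.42e-09, 5.87e-16 and 1.05e-09). Ptgs2, chosen after its values were seen, differed by 1.58 ± 0.06 at 24 h (adjusted p = 8.03e-23).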

How the results depend on the processing

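At 2 h, edgeR called 899 genes higher and 523 lower, whereas DESeq2 called 614 higher. DESeq2, with and without independent filtering, called 219 lower, and with the unstimulated library as only control edgeR called 498 higher and 159 lower. Leaving out 1 library gave 643 to 925 higher and 265 to 594 lower. Thinning to equal depth, an alternative chosen after seeing the data, gave 835 and 429. Of the 224 genes at least 2-fold higher, 198 to 224 remained called higher under each alternative that gave all 224 a value. Later counts without 1 library were 1176 to 1725 higher and 537 to 1218 lower at 6 h, 1505 to 2003 and 1061 to 1620 at 12 h, and 2185 to 2651 and 1861 to 2378 at 24 h. For 6 h minus 2 h, DESeq2 called 252 lower, and leaving out 1 library gave 338 to 717 higher and 178 to 488 lower. For 24 h minus 2 h, leaving out 1 library gave 1387 to 1645 and 1253 to 1615. The IRF element share, 13.5% over genes called higher, was 27.2% over those at least 2-fold higher. With a prior count of 5, the IFNA1 median of 1.45 was 1.33. Of 143 tested genes named in the text or figures, 123 kept their direction and their side of the threshold under every alternative run, and none reversed. With the unstimulated library as only control the calls of B2m and Ccl7 were lost (adjusted p = 0.0841 and 0.134), and with the spread shared over 20 libraries that of Irf7 (0.144). The cause of these changes was not tested, apart from fewer samples. The titles carry no replicate numbers, so no pairing is given. With stimulus as a replicate block, 788 genes were larger and 466 smaller at 6 h than at 2 h, and 1819 and 1700 at 24 h. DESeq2, without this block, called 513 larger and 252 smaller at 6 h, and 1347 and 1122 at 24 h. Each dose and each control was 1 library, and genes with few counts had wide intervals.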

Other observations

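Some further genes that changed at 2 h are described here. They were chosen after their values were seen and stand for no group. Of the Notch pathway, by which neighbouring cells signal to each other, 5 genes were read. The receptor Notch1 had 181 and 184 CPM with IFNγ, against 54.2, 57.6 and 46.7 CPM in the controls (1.79 ± 0.07, edgeR adjusted p = 3.98e-13). The ligand Dll1 rose by 1.69 ± 0.21, while the ligand Jag1 fell by 0.63 and Nrarp, a target that damps the pathway, fell by 0.74. Hes1, another target, did not pass the test at 2 h (0.15 ± 0.11, adjusted p = 0.456). At 24 h the log2 changes of Notch1, Dll1, Jag1, Nrarp and Hes1 were 1.03, 1.70, -1.02, -1.27 and -1.20.

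Among sensors of microbial products and their adapters, 6 genes that rose are named. Tlr3, a receptor for double-stranded RNA, had 130 and 128 CPM with IFNγ, against 49.4, 52.8 and 48.5 CPM in the controls (1.37 ± 0.07, adjusted p = 7.46e-12). Tifa, an adapter of NF-kB signalling, rose by 2.41 ± 0.17, Nod1, a sensor of bacterial peptidoglycan, by 1.78 ± 0.17, Myd88 by 1.31 ± 0.09, Irak2 by 1.04 ± 0.09 and Ripk2 by 1.01 ± 0.10. Hmgcs1, of cholesterol synthesis, fell by 0.38 and Fasn, fatty acid synthase, by 0.32, whereas Sqle, also of cholesterol synthesis, did not pass the test (-0.10 ± 0.05, adjusted p = 0.306). Fst had 506 and 528 CPM with IFNγ, against 107, 111 and 123 CPM in the controls (2.19 ± 0.06, adjusted p = 4.54e-16).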
